A study of Mus musculus with 21 samples.

Results

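Mouse embryos rebuilt by nuclear transfer into a recipient in M phase were compared with embryos rebuilt by transfer into an interphase zygote. The comparison rests on 6 of the 21 bead arrays of the study, chosen by their titles: 4 arrays of M phase transfer embryos (A to D) and 2 arrays of interphase transfer embryos (A and B). The other 15 arrays hold normal embryos at the interphase zygote, mitotic zygote and 2-cell stages, drug controls, embryos left without a genome (genomeless) and ES cells, for 8 groups in all. Each embryo array was made from a pool of 20 embryos cultured in KSOM, a potassium-enriched medium for preimplantation embryos.

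M phase transfer embryos were collected 22 to 24 h after transfer, which corresponds to 48 to 50 h after hCG, the hormone injection that times ovulation. Interphase transfer embryos are described as enucleated and given a genome at zygote interphase and were also collected 48 to 50 h after hCG, with no time since transfer. Their developmental stage is labelled as zygotes, and that of M phase transfer embryos only as embryo. For neither kind of transfer do the sources used here name the donor cell. Recipient stage, donor cell and time since transfer therefore cannot be told apart. Of the groups used for orientation, mitotic zygotes were held in mitosis with nocodazole and taken at 32 to 34 h, and 2-cell embryos were taken at 48 to 50 h. Drug controls were exposed to nocodazole at mitosis and taken at 48 to 50 h, and genomeless embryos were taken 22 to 24 h after their genome was removed and not replaced.

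In the mouse, the newly formed embryo lives at first on RNA and protein stored in the oocyte. The main wave of transcription from the embryonic genome comes at the 2-cell stage and is accompanied by the decay of stored maternal RNA. In M phase the nuclear envelope is broken down, so that proteins of the recipient nucleus are free in the cytoplasm, whereas removal of an interphase nucleus takes such proteins away with it. The title of the study names recipient nuclear factors as its subject.

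Each group was split evenly over the same 2 chips, here called 5 and 6. M phase transfer A and B and interphase transfer A lay on chip 5, and M phase transfer C and D and interphase transfer B on chip 6. Interphase transfer B stood apart: its mean signal was 12.79, against 535.14 for interphase transfer A and 687.57, 594.84, 159.94 and 73.0 for M phase transfer A to D. It detected 2584 of the 8527 genes tested, against 4510 in interphase transfer A and 4384 to 5820 in the M phase arrays (detection p below 0.01). The number of genes detected was higher after M phase transfer by 1690.75 on average. An exact permutation test over the 15 arrangements of the 6 arrays gave p = 0.267. This p doubles that of a single tail and so cannot be less than 0.133. Interphase transfer A and B correlated at 0.674 over genes, whereas M phase arrays correlated at 0.976 and 0.897 within a chip and at 0.839 to 0.887 across chips. The array of genomeless embryos B, on chip 6, was also dim (mean signal 11.25, 1896 genes detected), and it correlated with that of genomeless embryos A at 0.632. The main counts are given without interphase transfer B as well.

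Levels are log2 intensities after background correction and quantile normalisation, and a difference is M phase minus interphase transfer. A gene was called where limma gave an adjusted p below 0.05. Of the 8527 genes tested, 1588 (18.6%) were called: 977 (11.5%) were higher after M phase transfer and 611 (7.17%) were lower. The median difference was 2.53 among the higher genes, or 5.76-fold, and -2.09 among the lower genes, or 4.27-fold in the other direction, against 0.01 over all genes. For all 1588 genes the values of the 2 groups did not overlap, and the difference had the same direction on both chips. Non-overlap alone was more common: 24.7% of all genes tested lay above in every M phase array and 17.8% lay below. In pools of embryos, a lower level per embryo cannot be told apart from fewer embryos that express the gene.

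The higher calls were largely differences in detection. Of the 977 higher genes, 965 were detected on all 4 M phase arrays, while 565 were detected on neither interphase array, 277 on interphase transfer A alone and 124 on both. Of the 611 lower genes, 544 were detected on both interphase arrays and 309 also on all 4 M phase arrays. Without interphase transfer B, 816 genes were higher and 909 lower, and 1029 of the 1588 calls were kept; without interphase transfer A, 1116 were higher and 1156 lower, and 1231 were kept. Without M phase transfer B, 583 were higher and 239 lower. As shares of all genes, for reading the lists that follow, 9.6% were higher and 10.7% lower without interphase transfer B, and 13.1% and 13.6% without interphase transfer A. Without an M phase array 6.8% to 10.2% were higher and 2.8% to 5.0% lower, in each case least without M phase transfer B. The share of calls that were higher depended on the scaling. It was 61.5% here, 79.3% with quantiles of the values as deposited, 75.1% with the deposited mean-scaled values and 99.7% (378 of 379 calls) with median scaling, which moved the median over all genes to 0.33. With undetected values set to each array's detection floor it was 39.5%, with the median over all genes at -0.73.

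The largest rises after M phase transfer were in genes of varied known function. Mtres1, which encodes a mitochondrial RNA-binding factor, had levels of 13.31, 13.5, 13.19 and 13.16 in M phase transfer A to D and of 7.26 and 6.4 in interphase transfer A and B. The groups lay far apart, with a difference of 6.46 ± 0.33 (SE, adjusted p = 0.00137). With undetected values at the floor the difference was 5.64. Dppa4, a chromatin-bound gene of pluripotent cells, had levels of 13.21, 13.31, 13.16 and 12.73 after M phase transfer and of 8.43 and 6.4 after interphase transfer (difference 5.69 ± 0.57, adjusted p = 0.00315). Interphase transfer A was the higher of the 2 interphase arrays for both genes and the only one that detected them.

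Several of these genes were detected on neither interphase array, so that only a bound can be given. A bound sets the mean of the bright group against the dim group's arrays at their detection floor, or at their own value where that is higher. Mfsd5, of the major facilitator family of transporters, had levels of 11.9, 11.96, 12.58 and 12.6 against 6.79 and 6.17 and was at least 27.5-fold higher (adjusted p = 0.00137). Ppp2cb, which encodes the catalytic part of a serine/threonine phosphatase, stood at 11.87, 12.12, 12.28 and 11.88 against 6.28 and 6.28 and was at least 23.6-fold higher (adjusted p = 0.00137). Alppl2, an alkaline phosphatase of early embryos, had levels of 11.63, 11.69, 12.26 and 11.65 against 6.02 and 6.1, at least 20.1-fold higher (adjusted p = 0.00137).

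The membrane genes Timd2 and Cmtm4 were at least 22.0-fold and 22.3-fold higher, and Gm2a, a lysosomal activator protein of ganglioside breakdown, at least 14.5-fold. The remaining leading genes were Guca1a, a calcium sensor known from photoreceptors (difference 5.84 ± 0.54), Pheta1, an endosomal adaptor (5.59 ± 0.28), Znrd1, a subunit of RNA polymerase I (5.58 ± 0.44), and Slc5a6, a vitamin transporter (5.54 ± 0.43). All 12 leading genes belonged to the genes that rise between mitotic zygotes and 2-cell embryos, and each kept its call when any 1 of the 6 arrays was left out.

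**Figure D1:**
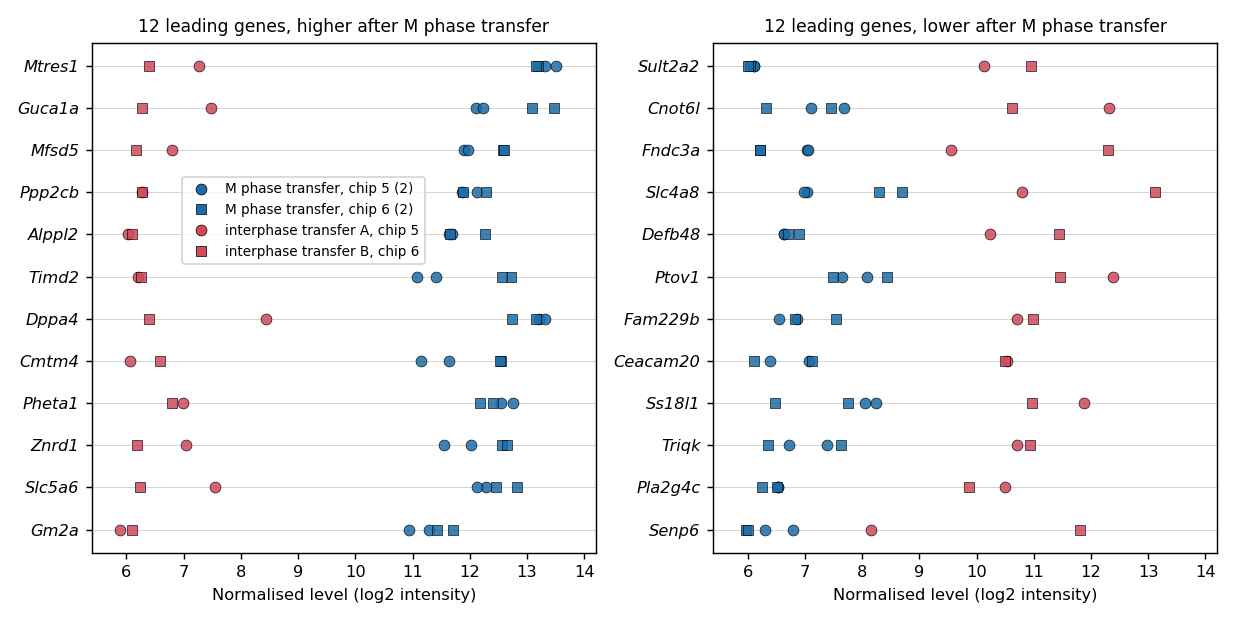
Normalised log2 level (x axis) of the 12 leading genes in each direction, 1 symbol per array, with blue for M phase transfer, red for interphase transfer, circles for chip 5 and squares for chip 6. The 24 genes were chosen among those without overlap between the groups. Mtres1 lies above 13 on all M phase arrays and below 8 on both interphase arrays.

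The genes that were lower after M phase transfer were led by genes that are also lower in 2-cell embryos than in mitotic zygotes. Cnot6l, a deadenylase that shortens the poly(A) tails of maternal RNA, had levels of 7.69, 7.1, 7.46 and 6.33 after M phase transfer and of 12.31 and 10.62 after interphase transfer. It fell by 4.32 ± 0.59 (adjusted p = 0.00627) and stood at 11.27 in mitotic zygotes, close to the interphase arrays, and at 7.07 in 2-cell embryos, close to the M phase arrays. Within chip 6 alone its adjusted p was 0.0501, just above the threshold, and the call was also lost with median scaling and with the deposited mean-scaled values.

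Sult2a2, a sulfotransferase gene, had levels of 6.11, 6.11, 6.05 and 6.0 against 10.13 and 10.96 in the interphase arrays. It was detected on no M phase array and was at least 14.3-fold lower there (adjusted p = 0.00173). Pla2g4c, a phospholipase gene expressed in oocytes, had levels of 6.53, 6.53, 6.26 and 6.51 against 10.5 and 9.87 and was at least 11.1-fold lower (adjusted p = 0.00208). The other leading genes, with differences of -4.29 to -3.71, were Fndc3a, Slc4a8 (a bicarbonate transporter), Defb48 (a defensin), Ptov1, Fam229b, Ceacam20 (an adhesion molecule), Ss18l1 (a chromatin remodelling subunit known from neurons), Triqk and Senp6 (a SUMO protease). Of the 12 leading genes, 11 belonged to the genes that fall between mitotic zygotes and 2-cell embryos, the exception being Senp6. Slc4a8 lost its call without M phase transfer B and Senp6 without any 1 of the M phase arrays, and no other leading gene lost it when 1 array was left out.

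The difference between the transfers was then set beside the normal change from mitotic zygote to 2-cell embryo. That change was fitted on arrays that hold no transfer embryos: 1554 genes (18.2%) were called and at least 1 log2 unit higher in 2-cell embryos, here called activated, and 1673 (19.6%) were called and at least 1 unit lower, here called lost. Of the activated genes, 712 (45.8%) were higher after M phase transfer and 3 were lower, against 11.5% and 7.17% of all genes. The other 839 activated genes were not called, 737 of them with a positive difference. Activated genes nearest to 0 were Tbc1d22a, F8, Ankfy1, Prss45, Tmem127 and Supt6, with differences of -0.01 to 0.01. Of the lost genes, 371 (22.2%) were lower and 15 were higher. Activated genes made up 72.9% of the higher calls and lost genes 60.7% of the lower calls. The median difference between the transfers was 1.81 for activated genes, against 2.03 between the normal stages, and -0.83 for lost genes, against -1.86. The stage medians come from the same fit that chose the genes, with a least difference of 1 log2 unit. They are therefore raised in size by that choice, which the transfer medians are not. Without interphase transfer B, 630 activated genes were higher and 512 lost genes were lower.

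Array by array, activated genes separated the groups and lost genes did so less clearly. The median activated gene stood 1.79, 1.89, 1.91 and 1.91 above mitotic zygotes in M phase transfer A to D, and 0.01 and -0.03 from them in interphase transfer A and B. The share of activated genes detected was 95%, 93%, 96.5% and 88.9% after M phase transfer, 45% and 26.5% after interphase transfer, and 60.3% to 62.5% in mitotic zygotes. The groups did not overlap on either measure, and both interphase arrays detected fewer activated genes than mitotic zygotes did, as they did for all genes. The mean level over the M phase arrays lay within 1 log2 unit of 2-cell embryos for 83.8% of activated genes, and the mean over the interphase arrays lay within 1 unit of mitotic zygotes for 72.1%. Of the 1554 activated genes, 755 were detected on neither interphase array and 312 on both. The nearness of the interphase arrays to mitotic zygotes is thus in part one of undetected values and is no measure of equal levels.

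The median lost gene stood at -1.71, -1.81, -1.77 and -1.9 against mitotic zygotes after M phase transfer and at -0.76 and -1.35 after interphase transfer. Here the interphase arrays differed from each other by more than the M phase arrays did, and the dim array B lay nearer to them. The median difference of lost genes was -1.17 within chip 5 and -0.34 within chip 6, while that of activated genes was 1.79 and 1.86. Whether the low signal of interphase transfer B has a part in this was not tested.

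**Figure D2:**
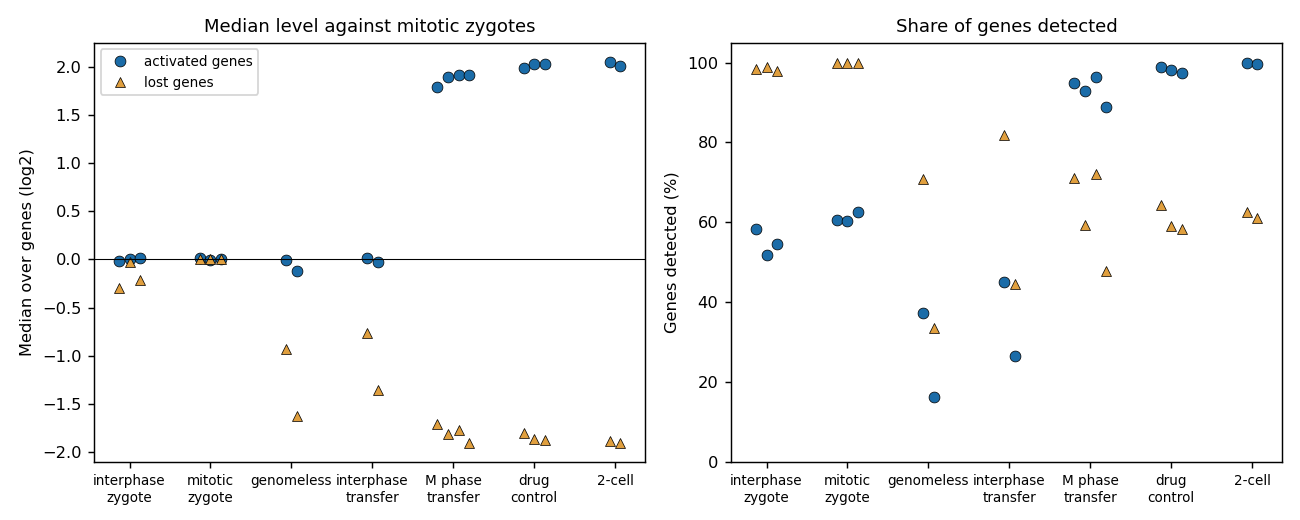
Median level of activated (blue circles) and lost (orange triangles) genes against mitotic zygotes in log2 units (left), and percent of these genes detected (right), 1 symbol per array in each group of embryos. Activated genes lie at 1.79 to 1.91 after M phase transfer and at 0.01 and -0.03 after interphase transfer.

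Over all 8527 genes, the difference between the transfers and that between 2-cell embryos and mitotic zygotes correlated at r = 0.68. This is a correlation across genes, which are not independent, and the 2 differences share no array. Over the 1613 genes detected on all 6 arrays r was also 0.68. The correlation of single arrays with the mean 2-cell embryo was 0.888 to 0.938 after M phase transfer and 0.539 and 0.5 after interphase transfer, and with the mean mitotic zygote it was 0.538 to 0.605 and 0.788 and 0.625. Among the other groups, both interphase arrays correlated best with the mean of genomeless embryos (0.84 and 0.732), with which the M phase arrays correlated at 0.487 to 0.575. Each pairing of an interphase with a genomeless array of the same letter shares a chip.

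**Figure D3:**
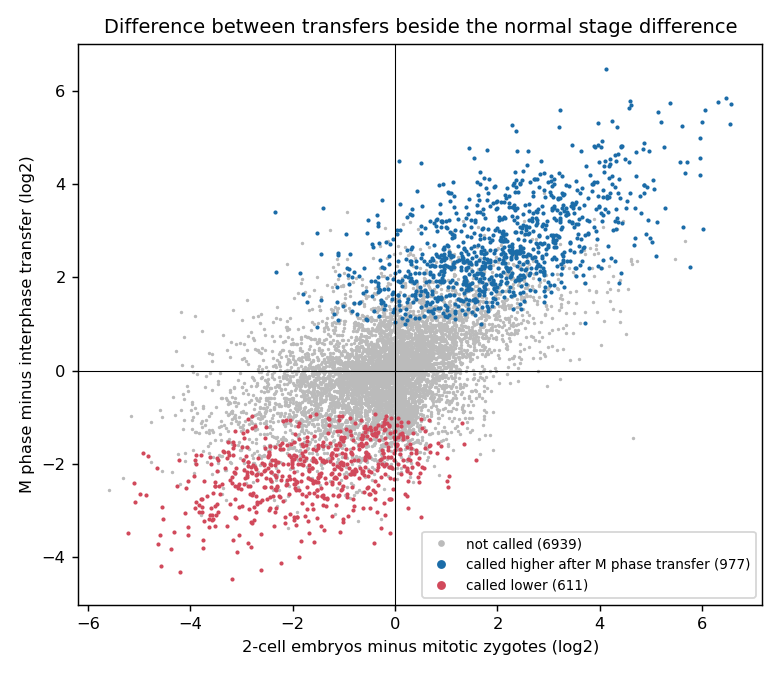
Each point is a gene: 2-cell embryos minus mitotic zygotes (x axis, log2) and M phase minus interphase transfer (y axis, log2), with called genes coloured. The higher calls (977) lie mainly at positive and the lower calls (611) mainly at negative stage differences.

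Genes for building ribosomes were often higher after M phase transfer. Of 62 tested genes of ribosome biogenesis, which make and process ribosomal RNA in the nucleolus, 35 (56.5%) were higher after M phase transfer and none lower. All 62 had a positive difference, with a median of 2.04 against 0.01 over all genes. With any 1 array left out 27 to 33 were higher. With array weights 18 were higher, with median scaling 11. Of 48 genes of cytosolic ribosomal proteins, 10 (20.8%) were higher and none lower (median 1.57). This count was 27 without interphase transfer B, with 1 lower, 7 to 11 without any other array and 21 with median scaling, and the median was 2.23 within chip 5 and 0.9 within chip 6.

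Wdr74, which encodes a nucleolar protein of large subunit assembly, had levels of 10.2, 10.26, 11.4 and 11.38 after M phase transfer and of 5.89 and 6.04 after interphase transfer. It was detected on neither interphase array and was at least 10.0-fold higher after M phase transfer (adjusted p = 0.00298). Nip7, needed for processing of ribosomal RNA, stood at 11.7, 12.17, 11.89 and 11.39 against 8.13 and 6.02 (difference 4.71 ± 0.6, adjusted p = 0.00503). Polr1e, a subunit of RNA polymerase I, was at least 7.8-fold higher (adjusted p = 0.00191).

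Ncl, which encodes nucleolin, had levels of 8.94, 9.48, 8.45 and 9.44 against 7.33 and 5.99 (difference 2.42 ± 0.5, adjusted p = 0.0218). Its call was lost without M phase transfer A, M phase transfer B or interphase transfer B. Rps9, of the small ribosomal subunit, was detected on all 6 arrays, at 13.52, 13.79, 13.44 and 12.78 against 8.69 and 9.3 (difference 4.39 ± 0.38, adjusted p = 0.00266). The groups did not overlap for any of these genes, and all were activated genes of the normal 2-cell stage.

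Promoters of the called genes were searched for 4 short motifs in the stretch from 250 bases before to 50 bases after the annotated start (RefSeq, GRCm38.p6, the first entry of each gene, both strands). A promoter was found for 795 of the 977 higher genes, 512 of the 611 lower genes and 6956 of the 8527 genes tested. The letters CCGGAAG, the core of sites bound by transcription factors of the ETS family, stood in 28.6% of promoters of higher genes, 13.9% of those of lower genes and 18.2% of all tested, and in 9.12% of the 27025 promoters of the table. The other motifs differed less: the GC box GGGCGG stood in 64.7%, 64.3% and 63.2%, the CCAAT box CCAAT in 37.5%, 34.4% and 39.1% and the TATA box TATAAA in 7.42%, 6.05% and 7.95% of higher, lower and all tested genes. These shares describe letters, not binding, and were not tested.

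The 150 bases before the start of 4 higher genes that hold CCGGAAG on either strand are printed here with the same stretch of Cnot6l, a leading lower gene. The 4 are the genes named here with the largest rise that hold these letters before the start. They are Wdr74 (chr19:8735689-8735838, plus strand), Nip7 (chr8:107056727-107056876, plus strand), Gnptg (chr17:25240141-25240290, minus strand), Cct8 (chr16:87495870-87496019, minus strand) and Cnot6l (chr5:96161991-96162140, minus strand). Capitals mark the 4 motifs on either strand. CCGGAAG or its reverse complement occurs in each of the 4 higher genes by this choice. It is absent from this stretch of Cnot6l, which was taken without regard to motifs and holds overlapping GC boxes. The printed stretches are therefore no comparison of higher with lower genes.
Wdr74: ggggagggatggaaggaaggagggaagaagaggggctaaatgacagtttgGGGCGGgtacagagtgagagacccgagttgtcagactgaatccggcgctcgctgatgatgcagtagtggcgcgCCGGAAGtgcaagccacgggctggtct
Nip7: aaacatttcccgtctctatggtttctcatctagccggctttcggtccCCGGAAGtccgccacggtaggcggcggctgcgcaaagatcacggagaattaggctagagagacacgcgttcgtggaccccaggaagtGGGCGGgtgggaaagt
Gnptg: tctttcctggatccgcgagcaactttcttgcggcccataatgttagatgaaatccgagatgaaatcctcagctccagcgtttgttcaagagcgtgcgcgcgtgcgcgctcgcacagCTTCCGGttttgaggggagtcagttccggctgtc
Cct8: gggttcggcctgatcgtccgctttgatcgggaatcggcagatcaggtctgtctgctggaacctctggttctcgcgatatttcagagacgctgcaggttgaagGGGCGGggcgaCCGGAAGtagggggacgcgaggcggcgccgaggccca
Cnot6l: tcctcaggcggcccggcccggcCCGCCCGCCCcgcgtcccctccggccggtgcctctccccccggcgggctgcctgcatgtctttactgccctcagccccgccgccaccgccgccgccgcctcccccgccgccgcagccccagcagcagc

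Lists for transcription, RNA processing and protein turnover held larger shares of higher calls than the 11.5% over all genes. Of 66 genes of RNA polymerase II and its general factors, 16 (24.2%) were higher and 7 (10.6%) lower (median 0.66), with 9 to 17 higher and 2 to 6 lower when 1 array was left out. Gtf2f2, the small subunit of the initiation factor TFIIF, had levels of 11.6, 11.9, 12.09 and 12.1 against 6.94 and 6.37 (difference 5.26 ± 0.31, adjusted p = 0.00137). Its partner Gtf2f1 was detected on neither interphase array and was at least 5.64-fold higher (adjusted p = 0.00315). Of 62 splicing genes, 13 (21.0%) were higher and 2 lower (median 0.75), among the higher ones Snrpd2, a core protein of spliceosomal particles, which was detected on all 6 arrays and was higher by 3.38 ± 0.47. Of 37 proteasome genes, 13 (35.1%) were higher and 1 lower (median 1.1). With 1 array left out, 9 to 14 splicing genes and 9 to 12 proteasome genes were higher. Psmb5, a catalytic subunit, stood at 10.16, 10.62, 10.75 and 10.64 against 6.13 and 6.09 and was at least 8.36-fold higher (adjusted p = 0.00139).

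Of 48 translation factors, 13 (27.1%) were higher and 1 lower (median 0.9; 8 higher without M phase transfer A or B), and of 14 aminoacyl-tRNA synthetases and their partners, which load amino acids onto tRNAs, 4 were higher and none lower (median 0.5). The synthetase gene Aars had levels of 10.87, 11.11, 10.87 and 11.45 against 7.08 and 7.12 (difference 3.98 ± 0.28, adjusted p = 0.00178). Of 30 heat shock protein and chaperonin genes, 8 (26.7%) were higher and none lower (median 0.48), and 4 were higher without M phase transfer A, B or C. The list holds 8 tested subunits of the TRiC chaperonin, which folds actin and tubulin, singled out here after their values were seen, and 5 of them were higher and none lower. Cct4 was at least 15.1-fold higher, Tcp1 was higher by 4.05 ± 0.4, Cct8 by 3.85 ± 0.45 and Cct6a by 3.0 ± 0.65. Cct6a lost its call without M phase transfer A, B or C or without interphase transfer A. Of 62 genes of oxidative phosphorylation, 18 (29%) were higher and 2 lower (median 1.01; 10 to 19 higher with 1 array left out), with the complex I genes Ndufs8 at least 5.81-fold and Ndufs7 at least 4.51-fold higher. Of 17 glycolysis genes, 1 (5.88%, against 11.5% of all genes) was higher, the glucose transporter gene Slc2a3, and 1 (5.88%, against 7.17%) was lower, Ldhb. Both lost their call without interphase transfer A or M phase transfer A. Slc2a3 also lost it without interphase transfer B, and Ldhb without any other M phase array. Without interphase transfer B no glycolysis gene was higher and 3 were lower. With undetected values at the floor, where the median over all genes was -0.73, the medians of heat shock genes (-0.1) and of tRNA synthetases (-0.22) were below 0 and above that median.

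**Figure D4:**
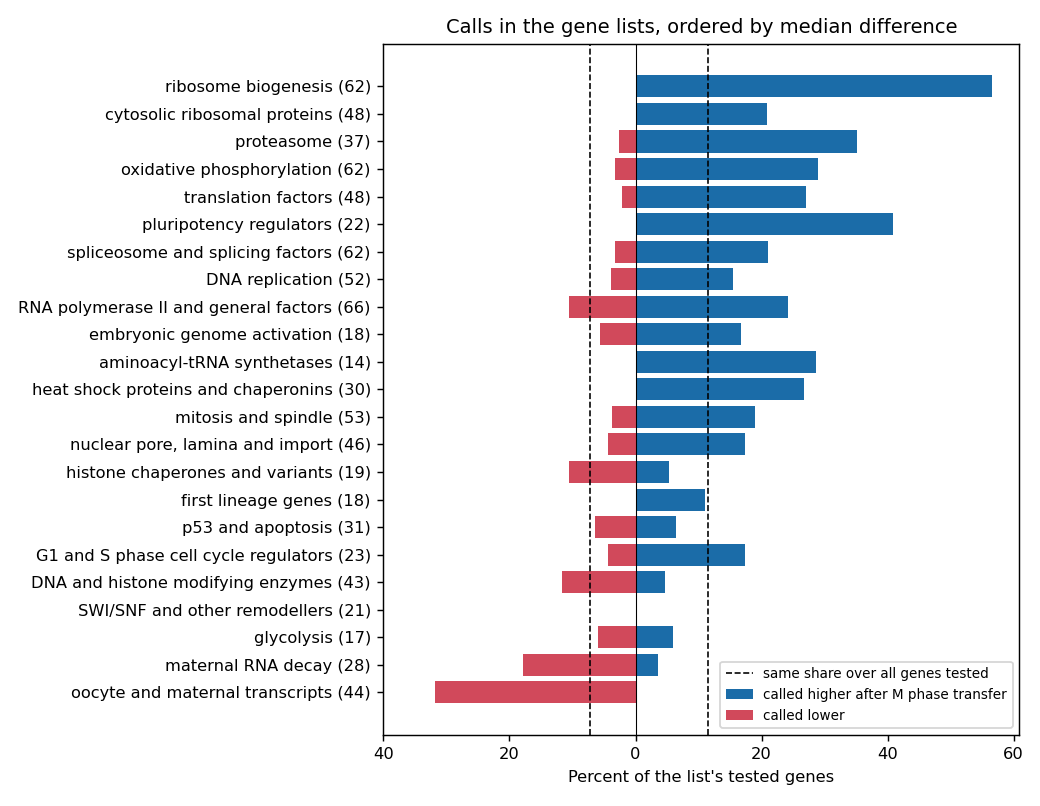
Percent of the tested genes of each list that were called higher (blue, to the right) or lower (red, to the left) after M phase transfer, with the number tested in brackets and lists ordered by their median difference. Dashed lines give the shares over all genes (11.5% and 7.17%). Ribosome biogenesis reaches 56.5% to the right and oocyte and maternal transcripts 31.8% to the left.

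Genes of the pluripotency network were split. Of 22 tested, 9 (40.9%) were higher after M phase transfer and none lower (median 0.84). Without interphase transfer B, 6 were higher and 2 lower (median 0.44), and without interphase transfer A the counts were also 6 and 2. Without an M phase array 4 to 6 were higher, with 1 lower without M phase transfer C, and with median scaling 3 were higher. Klf2 and Klf5 encode Krüppel-like transcription factors of the naive pluripotent state. Klf2 had levels of 9.68, 10.09, 9.68 and 9.46 against 6.18 and 5.81 and was at least 4.74-fold higher (adjusted p = 0.00208). Klf5 had levels of 10.4, 10.4, 10.24 and 9.54 against 6.48 and 6.18 and was at least 6.33-fold higher (adjusted p = 0.00278). The related Klf4 differed by 1.84 ± 0.49 (adjusted p = 0.0469) and lost its call without any 1 of the M phase arrays or without interphase transfer B. The 2 tested probes of Klf4 differed in sign, and the call was also lost with the mean over probes.

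Nanog, a homeodomain factor of pluripotent cells, had levels of 7.79, 8.06, 9.18 and 9.85 against 5.9 and 6.56 and was at least 2.36-fold higher (adjusted p = 0.0431). The chip 6 arrays were the higher ones, and the call was lost without M phase transfer B, C or D or without either interphase array. Nr5a2, a nuclear receptor, was higher by 3.5 ± 0.71 (adjusted p = 0.0212), a call lost without M phase transfer A, B or C. Pou5f1, which encodes Oct4 and is supplied by the oocyte, stood at 6.73, 6.73, 7.27 and 7.34 against 8.55 and 6.12, with overlapping groups (adjusted p = 0.767). Sox2 was detected on no M phase array and on interphase transfer B alone (adjusted p = 0.122). In ES cells the mean levels were 12.16 for Nanog, 8.8 for Pou5f1 and 6.96 for Sox2. With undetected values at the floor the median of the pluripotency list was -0.18 and, as before, above the median over all genes.

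Genes known to be switched on with the embryonic genome showed a wide range. Of 18 tested, 3 (16.7%, against 11.5% of all genes) were higher and 1 (5.56%, against 7.17%) was lower (median 0.62). Pramel7, of a family expressed in early embryos, had levels of 10.1, 10.32, 10.93 and 10.86 against 6.1 and 6.05 and was at least 8.41-fold higher (adjusted p = 0.00191). Obox6, an oocyte and embryo homeobox gene, stood at 10.22, 10.54, 10.55 and 10.04 against 6.16 and 7.75 and was at least 7.25-fold higher (adjusted p = 0.00675), a call lost within chip 6.

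Eif1a, a translation factor gene often used to mark genome activation, had levels of 8.62, 8.67, 7.32 and 8.04 against 6.78 and 6.46 without overlap, and its adjusted p was 0.0616. Tdpoz1 stood at 9.78, 9.46, 10.4 and 8.47 against 5.93 and 9.67: interphase transfer A lay far below and interphase transfer B within the M phase arrays (adjusted p = 0.309). Zfp352 also overlapped between the groups (adjusted p = 0.419). Among genes of the first cell lineages, 2 of 18 (11.1%) were higher, close to the 11.5% of all genes. Tead4, a transcription factor of the trophectoderm, was at least 3.15-fold higher (adjusted p = 0.00445), and Prkcz, a polarity kinase, at least 1.56-fold (adjusted p = 0.0227), a call that was lost without M phase transfer B or C or without either interphase array.

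Oocyte and maternal transcripts were in part lower after M phase transfer. Of 44 tested, 14 (31.8%, against 7.17% of all genes) were lower and none higher (median -1.52). Bmp15, a growth factor of the oocyte, had levels of 9.44, 8.84, 9.7 and 8.24 against 12.89 and 12.2 and fell by 3.49 ± 0.48 (adjusted p = 0.00648). Ooep, part of the subcortical maternal complex, stood at 9.74, 8.98, 10.1 and 9.12 against 12.03 and 13.4 and fell by 3.23 ± 0.51 (adjusted p = 0.00956). Both groups detected these transcripts on all arrays, and mitotic zygotes had still more, at 13.77 for Bmp15 and 14.22 for Ooep. The connexin gene Gja4 fell by 2.83 ± 0.32 and the homeobox gene Obox1 by 3.03 ± 0.7, the latter a call lost without M phase transfer A or B or without interphase transfer B.

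Other maternal genes did not pass. Gdf9, a partner of Bmp15 in the oocyte, stood at 12.32, 12.05, 12.5 and 12.33 against 13.33 and 12.26, with overlapping groups (adjusted p = 0.394). Nlrp5, also of the subcortical maternal complex, stood at 10.31, 10.03, 9.43 and 8.06 against 10.93 and 11.7 (adjusted p = 0.108). Zar1 was near the floor in both groups, at 6.29 to 7.01 and at 7.11 and 7.89, and at 11.36 in mitotic zygotes. The number of lower oocyte genes was 8 without interphase transfer B (10.7% of all genes being lower there), 4 without M phase transfer A (3.8% of all genes), 3 without M phase transfer B (2.8%) and 2 with array weights (1.4%). With median scaling 1 gene in all was lower, and it was no oocyte gene; the median of the list was -0.47 and that of all genes 0.33. No oocyte gene passed the test in the other direction in these fits, except 2 without interphase transfer A.

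Genes that act in maternal RNA decay fell in part. Of 28 tested, 5 (17.9%, against 7.17% of all genes) were lower and 1 (3.57%, against 11.5%) was higher (median -0.88). Without an M phase array 4 or 5 were lower, where 2.8% to 5.0% of all genes were. With array weights 1 was lower (1.4% of all genes). Besides Cnot6l, the deadenylase gene Cnot7 stood at 9.66, 9.26, 10.29 and 9.47 against 12.28 and 11.63 (fell by 2.28 ± 0.39, adjusted p = 0.0117), and Cpeb1, which controls poly(A) tails in the oocyte, fell by 2.53 ± 0.38 (adjusted p = 0.00815). Btg4, an adaptor of the same deadenylase, had levels of 7.08, 6.22, 9.39 and 8.39 against 9.88 and 11.23, without overlap and without a call (adjusted p = 0.0892). With median scaling the median of the list was 0.11, below the 0.33 over all genes.

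Cell cycle lists held calls in both directions. Of 53 genes of mitosis and the spindle, 10 (18.9%, against 11.5% of all genes) were higher and 2 (3.77%, against 7.17%) lower (median 0.37). Without interphase transfer B their median was 0.01, against 0.02 over all genes. Without interphase transfer A it was 0.83, against 0.2 over all genes. Without M phase transfer B 6 genes of the list were higher and 1 lower. Of 52 genes of DNA replication 8 (15.4%, against 11.5% of all genes) were higher and 2 (3.85%, against 7.17%) lower (median 0.69). Without any 1 of the M phase arrays 5 were higher, where 6.8% to 10.2% of all genes were. The median of these genes was 0.52 without interphase transfer B and 0.8 without interphase transfer A (all genes: 0.02 and 0.2). Cdk1, the kinase that drives entry into mitosis, had levels of 9.42, 9.47, 10.87 and 9.84 against 6.29 and 6.1 and was at least 5.34-fold higher (adjusted p = 0.00499). Ccne1, the cyclin of the start of S phase, stood at 11.12, 10.89, 12.75 and 11.46 against 7.81 and 6.35 (difference 4.48 ± 0.65, adjusted p = 0.00753). Orc5, a subunit of the origin recognition complex, fell by 2.65 ± 0.39 (adjusted p = 0.00781). Cdkn1a, the p21 inhibitor of cyclin-dependent kinases, had levels of 10.37, 10.97, 10.25 and 11.22 against 9.31 and 6.28 and did not pass (adjusted p = 0.0566). Of 31 genes of p53 and apoptosis, 2 (6.45%, against 11.5% of all genes) were higher and 2 (6.45%, against 7.17%) were lower. Their median was 0.04, and -0.14 without interphase transfer B.

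Chromatin lists held shares of calls below the 18.6% over all genes, 2 of the 3 lists close to it. Of 21 genes of SWI/SNF and other remodellers limma called none (median -0.02). Without interphase transfer A, 3 were higher and 1 lower, without interphase transfer B 1 was lower, with median scaling 1 was higher and with undetected values at the floor 3 were lower. Smarca4, which encodes the ATPase Brg1, stood at 8.02, 8.02, 7.81 and 7.93 after M phase transfer and at 8.63 and 5.99 after interphase transfer, so that the interphase arrays lay on either side (adjusted p = 0.558). Of 43 DNA and histone modifying enzymes, 7 (16.3%) were called, 2 higher and 5 lower (median -0.01), with 6 higher and 5 lower without interphase transfer A and 2 of each without M phase transfer A or B. Hdac1, a histone deacetylase of the early embryo, had levels of 9.94, 9.83, 9.56 and 10.44 against 6.92 and 6.1 and was at least 5.51-fold higher (adjusted p = 0.00378). Crebbp, a histone acetyltransferase, was detected on no M phase array, at 5.86 to 6.44 against 8.51 and 10.79, and was at least 7.68-fold lower (adjusted p = 0.0135). The maternal DNA methyltransferase Dnmt1 was lower in all 4 M phase arrays, at 8.23 to 8.59 against 8.94 and 10.24, and did not pass (adjusted p = 0.113). Of 19 histone chaperones and variants 3 (15.8%) were called, of which 1 was higher and 2 were lower, among the latter the oocyte linker histone H1f8 (fell by 2.51 ± 0.47, adjusted p = 0.0159), a call lost without M phase transfer B or interphase transfer B.

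Of 46 genes of the nuclear pore, lamina and nuclear import, 8 (17.4%, against 11.5% of all genes) were higher and 2 (4.35%, against 7.17%) lower. Without M phase transfer B or C the counts were 4 and 1. The median was 0.34, with 0.39 without interphase transfer B and 0.6 without interphase transfer A. Rangap1, which activates the Ran GTPase at the pore, had levels of 11.53, 11.6, 10.68 and 10.59 against 7.76 and 6.17 (difference 4.14 ± 0.56, adjusted p = 0.00601). The lamin B receptor gene Lbr stood at 11.88, 12.07, 11.06 and 11.32 against 9.81 and 6.56 (difference 3.4 ± 0.87, adjusted p = 0.0426), a call lost without any 1 of the M phase arrays or without interphase transfer B.

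A small set of calls ran against the normal stage difference. Of the 15 higher genes that were lost at the 2-cell stage, Aurka had the steadiest values. Aurka, a kinase of spindle assembly, stood at 10.38, 10.28, 10.4 and 10.4 against 7.69 and 7.14, and at 11.67 in mitotic zygotes and 10.14 in 2-cell embryos (difference 2.95 ± 0.27, adjusted p = 0.0029). Uqcrc2, a subunit of respiratory complex III, had levels of 9.11, 9.77, 9.74 and 9.48 against 7.35 and 7.47, 11.89 in mitotic zygotes and 9.57 in 2-cell embryos (difference 2.11 ± 0.3, adjusted p = 0.00676). For both genes the M phase arrays lay near the 2-cell embryos and the interphase arrays below both stages. Anxa2 and Babam2, also among the 15, went the other way. Their M phase means of 9.54 and 8.83 lay above the mitotic zygote means (9.21 and 7.31) and the 2-cell means (6.86 and 6.2). The M phase means of Brix1 (10.95) and Psma7 (8.35) lay near the 2-cell means (10.67 and 8.48). Anxa2, Babam2, Brix1 and Psma7 each lost their call without M phase transfer B. The 3 lower genes that were activated at the 2-cell stage were Ppib, a cyclophilin of the endoplasmic reticulum (fell by 2.36 ± 0.42, adjusted p = 0.0134), Kpnb1, an importin, and Rcan3, a calcineurin regulator. Kpnb1 and Rcan3 each lost their call without any 1 of the M phase arrays or without interphase transfer B, and Rcan3 also without interphase transfer A. The 3 tested probes of Rcan3 did not share a sign, and its call was also lost with the mean over probes.

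In 543 of 8527 genes both interphase arrays detected the transcript and lay above every array of mitotic zygotes, 2-cell embryos and M phase transfer. Of these 543, 299 were among the 611 lower calls. This choice fixes the direction of the difference: of all 1518 genes with every M phase array below, 611 were called. Rock1, a kinase of the actin cytoskeleton, stood at 10.34 and 10.91 against 8.43, 7.94, 7.22 and 6.32 after M phase transfer, with means of 7.27 in mitotic zygotes and 7.78 in 2-cell embryos. Cstf2, a cleavage factor of RNA 3′ end formation, stood at 11.28 and 11.91 against 9.44, 9.04, 8.46 and 7.69. Genomeless embryos A and B, of which B is dim, had levels of 9.71 and 11.75 for Rock1 and of 11.22 and 11.09 for Cstf2. Hs2st1, a heparan sulfate sulfotransferase gene, stood at 10.41 and 11.87 there, and the myotrophin gene Mtpn at 10.79 and 12.09. The limma adjusted p between the transfers was 0.0184 for Rock1, 0.0143 for Cstf2, 0.0276 for Hs2st1 and 0.0329 for Mtpn. Each of these calls was lost with median scaling and with array weights. Those of Rock1, Hs2st1 and Mtpn were also lost without M phase transfer C, and that of Mtpn without M phase transfer B. The genomeless arrays lay on the same 2 chips as the transfer arrays, on which no zygote or 2-cell array was run.

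In 619 of 8527 genes the interphase arrays lay below every array of mitotic zygotes, 2-cell embryos and M phase transfer, all of which detected the transcript. Of these 619, 424 were among the 977 higher calls. The direction is again fixed by the choice: of all 2103 genes with every M phase array above, 977 were called. Gnptg, a subunit of the enzyme that tags lysosomal proteins, stood at 7.67 and 6.26 against 11.2, 11.59, 11.59 and 11.44 after M phase transfer (difference 4.49 ± 0.43, adjusted p = 0.00298). Its means were 11.29 in mitotic zygotes and 11.37 in 2-cell embryos, and genomeless embryos A and B stood at 9.23 and 6.25, the latter not detected. Brms1, of a histone deacetylase complex, stood at 7.21 and 5.89 against 9.88, 9.92, 10.39 and 11.28, and was detected on neither genomeless array (6.27 and 6.63). Prc1, which organises the midzone of the spindle, stood at 10.05 and 6.04 against 11.36, 11.37, 12.06 and 10.98 and was not called (adjusted p = 0.0702).

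The comparison was made on each chip with 2 M phase arrays against 1 interphase array. Over the 1588 called genes the chip 5 and chip 6 differences correlated at 0.92, a description of genes that were chosen on both chips together. Within chip 5 alone 4027 genes were called and within chip 6 alone 881, where the lone interphase array is assumed to vary like the M phase arrays. Between the M phase arrays of chip 5 and those of chip 6 limma called 0 genes, with 1970 at an unadjusted p below 0.05, 193 called with a robust variance trend and 186 with median scaling.

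**Figure D5:**
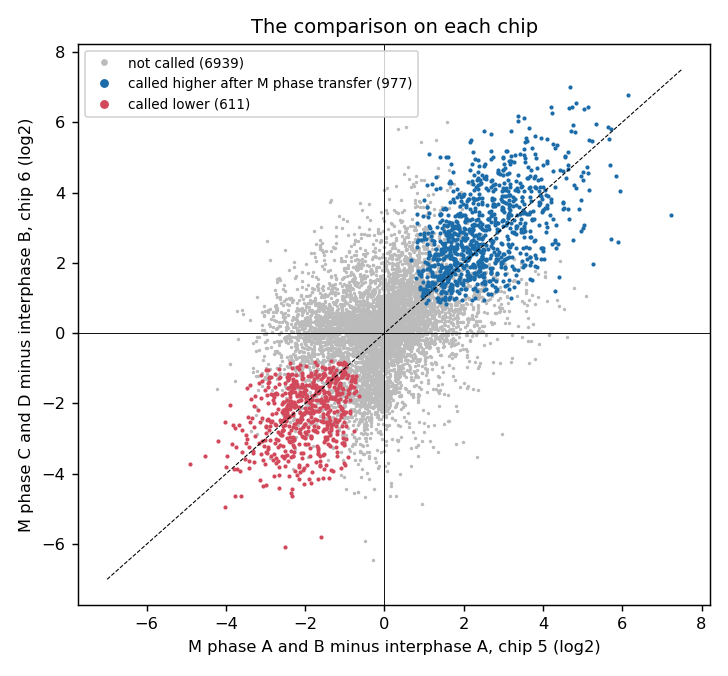
Each point is a gene: M phase transfer A and B minus interphase transfer A on chip 5 (x axis, log2) and M phase transfer C and D minus interphase transfer B on chip 6 (y axis, log2), with the dashed line at equal values. The 977 higher calls lie at the upper right and the 611 lower calls at the lower left.

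Most markers of cells that could adhere to or be carried into the embryos were not detected in either group. Of 20 cumulus and granulosa cell markers on the array each of the 6 arrays detected 2 or 3, and the defining genes Has2, Ptgs2, Amh and Foxl2 were detected on none. Of 23 fibroblast and stromal markers 3 to 7 were detected, with Col1a1, Col1a2 and Col3a1 on none, and of 17 blood and epidermal markers 0 to 3. Their summed levels were 12.07 to 12.76 and 10.62 to 11.06 (cumulus), 10.99 to 12.64 and 12.69 to 12.9 (fibroblast), and 10.11 to 10.27 and 10.25 to 11.01 (blood and epidermal) in M phase and interphase transfer. The cumulus sum follows Gja1, a gap junction gene that is also activated in 2-cell embryos and was higher after M phase transfer by 5.33 ± 0.39. In the fibroblast list, the matrix metalloproteinase gene Mmp2 stood at 9.48, 8.79, 10.11 and 10.65 after M phase transfer against 12.25 and 12.23, a fall of 2.48 ± 0.53 (adjusted p = 0.0251) and a call lost without M phase transfer A or C or without either interphase array. Mmp2 stood at 12.68 in mitotic zygotes and 9.16 in 2-cell embryos. In the blood and epidermal list, the keratin gene Krt17 stood at 9.84 in interphase transfer B alone and at 5.95 to 7.51 on the other transfer arrays. Of 12 oocyte and early embryo markers 9 to 11 were detected on each array. Of 10 ES cell markers 3 to 6 were detected after M phase transfer and 1 or 2 after interphase transfer. Their summed levels overlapped, at 10.52, 10.69, 10.99 and 12.41 in M phase transfer A to D and 10.64 and 10.13 in interphase transfer A and B. Of all genes tested, 51.4% to 68.3% were detected on the M phase arrays and 52.9% and 30.3% on the interphase arrays.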

How the data were processed

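The authors deposited non-normalised probe signal, an intensity after background subtraction that runs below 0, with a detection p-value per probe, and the same intensity scaled by 1 factor per array. GenomeStudio is the tool given in the submitters' processing notes. Per the labels, RNA came from a PicoPure isolation and was amplified and biotin-labelled by Illumina protocols. The labels do not say that arrays of a group came from separate experiments, so p-values measure only the spread between these samples, which may be technical.

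Of 24613 probes, 20984 carried 1 gene symbol, 1 several and 3628 none in the platform annotation. With limma 3.58.1 in R 4.3.3, background was corrected by normexp with an offset of 50, followed by quantile normalisation over all 21 arrays on the log2 scale. Probes with a detection p-value below 0.01 on at least 2 arrays were kept (11541), and the brightest probe stood for each of the 8527 genes. lmFit and eBayes were fitted to the 6 transfer arrays (6.3 degrees of freedom after moderation, median SE 0.44), with Benjamini-Hochberg adjustment over all genes and calls below 0.05. A fit without transfer arrays, with near-identical arrays averaged (SD of log2 differences below 0.2), gave activated and lost genes; with all arrays separate these were 1646 and 1804 in place of 1554 and 1673. The floor of an array is the lowest level among its detected probes. The number of arrays limits the precision. The fit was tested on simulated data.

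Genes to name were picked by rule, and not all of them appear in the text. Per direction they were the 12 called genes with the largest differences (values without overlap, detected on every bright array, probes in 1 direction). Others were up to 4 of each of 26 lists and a fixed set. To these came up to 6 called genes that run against the stage difference and up to 6 activated genes nearest to 0. Up to 6 were extreme for interphase transfer in each direction. Members and lists were chosen with earlier results of these data known. Alternatives changed background correction, scaling, filter, model, blocks and arrays.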

Additional observations from a re-analysis of the deposited data

Results flagged for a closer look

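Among 172 values checked over the 4 M phase transfer arrays, 11 had 1 array far from the other 3, with a gap to its neighbour that took most of the whole range (above Dixon's 95% critical value). Chance gives this in about 1 in 20 groups. M phase transfer D was the low one for Hira (5.95, next 6.48), Rars (7.9, next 9.78) and Ei24 (10.45, next 11.66), and the high one for Vim (8.94, next 6.73) and Eif2b3 (10.21, next 9.66). M phase transfer C was the low one for Pla2g4c (6.26, next 6.51), Dnmt1 (8.23, next 8.54) and Supt6 (9.96, next 10.77) and the high one for Alppl2 (12.26, next 11.69). M phase transfer B was low for Aurka (10.28, next 10.38), and M phase transfer A for the median of activated genes over mitotic zygotes (1.79, next 1.89). The gaps were small beside the difference between the transfers for Alppl2, Pla2g4c and Aurka. Vim, an intermediate filament gene of stromal cells, stood at 8.94 in M phase transfer D and at 7.66 and 8.71 in the interphase arrays.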

How the results depend on the processing

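Against 1588 calls, median scaling gave 379 (378 higher and 1 lower), 277 of them among the 1588, array quality weights gave 500 (380 and 120, all among the 1588), and all groups in 1 model gave 2484 (1516 and 968). Within chip 5 there were 4027 (1939 and 2088), within chip 6 881 (596 and 285), and with chip as a block 2252, 930 of them lower. Lower calls numbered 222 with the values as deposited, 328 with the mean-scaled values and 1154 with undetected values at the floor. With 1 array left out the counts ran from 822 to 2272 in all, 583 to 1116 higher and 239 to 1156 lower, lowest without M phase transfer B. Deviations of same-lettered arrays correlated at 0.35 (A, which share a chip) and -0.25 (B, which do not). With 2 interphase arrays the deviations mirror each other, and M phase transfer B correlated with interphase transfer A at 0.25. These values therefore cannot decide whether the letters mark pairs. The main fit did not take them as pairs. A fit with the replicate block rests on A and B alone and called 0 genes, 0 higher and 0 lower, at an adjusted p below 0.05. It leaves hardly any residual degrees of freedom, so this count cannot decide whether the calls hold within pairs. Between the M phase arrays of the 2 chips, 186 genes were called with median scaling and 193 with a robust variance trend, against 0. The cause of these changes was not tested.

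The median of activated genes, 1.81, was 2.26 with offset 16, 2.04 with quantiles over the 6 arrays, 1.7 with the mean over probes, 2.33 with median scaling, 2.81 with the values as deposited, 3.0 with the mean-scaled values and 1.02 with floors (all genes: -0.73), and 1.79 to 1.85 with 1 array left out. That of lost genes, -0.83, was -0.31 with median scaling, -1.17 within chip 5 and -0.34 within chip 6, and -1.21 to -0.31 with 1 array left out. Over 166 named genes, leaving out 1 array kept the side of the threshold in 859 cases, lost a call in 114 and gained one in 23. The other alternatives kept it in 2196, lost a call in 347, gained one in 106 and turned 1, Rcan3, to 0.07 with median scaling. Depth limits what was detectable in interphase transfer B, whose floor of 8.04 lies above those of the other transfer arrays (6.53 to 7.01).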
